A study of Mus musculus with 7 samples.

Results

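Cholesterol and fatty acid synthesis genes were followed across 7 mouse esophageal epithelial cell lines that differ in p53. The set was chosen by symbol: the enzymes of sterol synthesis, the enzymes of fatty acid synthesis, desaturation and elongation, and the SREBP system that controls both. Of 34 listed symbols, 33 had a row in the table of 24047 gene names, and all 33 passed the filter on low counts that left 13768 genes for testing. The gene for the cytosolic enzyme that makes HMG-CoA, Hmgcs1, was not analysed here.

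Cells build cholesterol from acetyl-CoA in 2 stages. The mevalonate arm makes isoprenoid units, and the enzymes after squalene close the sterol rings and trim them into cholesterol. The transcription factors SREBP1 and SREBP2 sit as inactive precursors in the endoplasmic reticulum membrane, held there by INSIG proteins when sterol is plentiful. When sterol runs low, SCAP escorts them to the Golgi, where proteases free the active factor, which then switches on nearly the whole sterol pathway and, through SREBP1 in particular, the fatty acid enzymes. Wild-type p53 has been reported to hold SREBP2 back by inducing the sterol exporter Abca1, and missense p53 has been reported to raise mevalonate genes in human breast cancer cells. In squamous epithelium the same lipids also feed the barrier of the upper layers.

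The lines were 3 carrying the p53R172H missense mutation (called mutant 1, 2 and 3) and 2 of p53 -/- genotype, without p53 (called null 1 and null 3), set against 2 wild-type lines (WT 1 and WT 2). All 5 mutant and null lines carry the treatment label 4NQO, a DNA-damaging esophageal carcinogen, and the WT lines carry no such label, so that p53 genotype and 4NQO cannot be told apart in any comparison with WT. Mutant against null is the comparison in which both groups share the 4NQO label. All lines are described as of mixed strain background and were grown in the keratinocyte medium KSFM on plastic. The labels do not say whether a line is 1 clone, which animal it came from, the sex or age of the animal, or how long the carcinogen was given.

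Library totals ran between 41325469 and 47000225 counts in mutant lines, between 25469853 and 33598210 in null lines, and were 31283848 and 12751118 in WT 1 and WT 2, so WT 2 is the shallowest library. Levels below are CPM (read counts scaled to a fixed library size) after TMM scaling. Trp53 itself stood at 171.6, 249.6 and 253.9 CPM in mutant 1, 2 and 3, at 8.73 and 4.71 CPM in null 1 and 3, and at 211.6 and 192.7 CPM in WT 1 and 2, so it was low in the null lines alone; its level says nothing of the missense allele. The summed level of 9 squamous epithelial markers lay between 6931 and 9953 CPM in mutant lines and at 9602 and 5837 CPM in null lines, against 27029 and 37594 CPM in WT lines. That sum is mostly the basal keratins Krt5 and Krt14. Trp63, the basal cell factor, had 299.2, 295.6 and 440.5 CPM in mutant lines and 304.9 and 168.1 CPM in null lines, against 280.8 and 411.6 CPM in WT lines. The adhesion gene Cdh1 was at 475.6, 289.2 and 444.8 CPM in mutant lines and 742.0 and 761.9 CPM in null lines, against 930.8 and 690.9 CPM in WT lines. Epcam had 175.2, 70.1 and 55.0 CPM in mutant, 352.8 and 388.0 CPM in null and 453.7 and 385.6 CPM in WT lines. The keratin Krt13 had 8.71, 1.45 and 2.96 CPM in mutant, 14.9 and 47.5 CPM in null and 85.9 and 172.9 CPM in WT lines. Sox2 had 36.1, 77.8 and 148.5 CPM in mutant, 25.3 and 26.8 CPM in null and 42.5 and 62.5 CPM in WT lines. The summed level of 8 fibroblast markers was 567.01, 9.73 and 375.9 CPM in mutant lines and 8.03 and 419.6 CPM in null lines, against 5.61 and 8.20 CPM in WT lines. Defining markers of adipocytes, a cell type rich in these enzymes, summed to at most 0.342 CPM in any line. Muscle markers reached 115.8 CPM in null 3, leukocyte markers (1 of 5 at 0 in all lines) 92.0 CPM in mutant 3, and endothelial markers 2.05 CPM in null 3. The part of these marker differences in the results below was not tested, and in these bulk libraries fewer cells of a type and less RNA per cell cannot be told apart.

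The promoters of 26 of the 33 genes could be read from RefSeq on GRCm38.p6, as 35 windows that run 250 bases before to 50 bases after a start site. Below are 6 of them, chosen because the levels of these genes carry the results: a sterol enzyme and the SREBP escort that passed the test (Nsdhl and Scap), the enzyme at the head of the mevalonate arm (Acat2), the mevalonate enzymes lowest in mutant lines relative to null lines (Mvk and Mvd), and the SREBP retention factor Insig1. They are printed 5′ to 3′ in the direction of the gene. Capitals mark CCAAT on either strand (ATTGG when read on the other), the binding sequence of NF-Y, a factor that works beside SREBP, and in Acat2 the sterol element sequence CACCCCAC.
Nsdhl, chrX:72918271-72918570, plus strand: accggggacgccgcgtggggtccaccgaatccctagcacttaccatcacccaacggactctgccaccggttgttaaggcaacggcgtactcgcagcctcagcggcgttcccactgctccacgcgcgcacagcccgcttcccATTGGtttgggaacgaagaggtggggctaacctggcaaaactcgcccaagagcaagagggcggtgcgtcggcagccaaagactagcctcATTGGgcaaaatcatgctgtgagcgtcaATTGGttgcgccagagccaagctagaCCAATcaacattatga
Mvk, chr5:114444019-114444318, plus strand: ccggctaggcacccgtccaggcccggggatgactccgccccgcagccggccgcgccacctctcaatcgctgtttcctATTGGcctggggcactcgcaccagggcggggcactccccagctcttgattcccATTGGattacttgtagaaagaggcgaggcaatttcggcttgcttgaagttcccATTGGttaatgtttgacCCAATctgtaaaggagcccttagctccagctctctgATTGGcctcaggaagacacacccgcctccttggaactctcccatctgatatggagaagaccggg
Mvd, chr8:122443373-122443672, minus strand: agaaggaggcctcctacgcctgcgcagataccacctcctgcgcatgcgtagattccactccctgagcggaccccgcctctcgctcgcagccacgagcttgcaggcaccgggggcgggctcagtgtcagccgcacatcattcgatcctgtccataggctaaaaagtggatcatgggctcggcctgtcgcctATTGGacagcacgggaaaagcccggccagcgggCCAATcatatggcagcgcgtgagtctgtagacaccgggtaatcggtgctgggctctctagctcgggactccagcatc
Insig1, chr5:28071162-28071461, plus strand: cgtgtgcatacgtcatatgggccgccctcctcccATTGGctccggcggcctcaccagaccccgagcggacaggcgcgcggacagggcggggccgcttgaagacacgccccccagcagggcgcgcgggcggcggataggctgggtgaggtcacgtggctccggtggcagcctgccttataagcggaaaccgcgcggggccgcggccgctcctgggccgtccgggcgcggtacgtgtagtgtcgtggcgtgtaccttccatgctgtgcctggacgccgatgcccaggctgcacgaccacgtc
Acat2, chr17:12960676-12960975, minus strand: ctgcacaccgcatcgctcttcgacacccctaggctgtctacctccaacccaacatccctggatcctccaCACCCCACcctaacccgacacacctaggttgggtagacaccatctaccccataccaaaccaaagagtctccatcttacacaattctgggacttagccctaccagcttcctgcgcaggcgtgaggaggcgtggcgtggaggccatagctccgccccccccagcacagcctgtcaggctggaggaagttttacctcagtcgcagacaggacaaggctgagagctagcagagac
Scap, chr9:110333038-110333337, plus strand: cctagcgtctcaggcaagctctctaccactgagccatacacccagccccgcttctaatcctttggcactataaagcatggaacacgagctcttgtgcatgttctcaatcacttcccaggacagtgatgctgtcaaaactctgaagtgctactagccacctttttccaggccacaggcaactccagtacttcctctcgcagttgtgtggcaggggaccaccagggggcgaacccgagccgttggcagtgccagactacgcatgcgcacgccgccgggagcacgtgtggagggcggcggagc
Nsdhl holds 4 matches to CCAAT in this window, Mvk 5, Mvd 2 and Insig1 1, and the windows of Acat2 and Scap hold none. Among all windows of the set, CCAAT was found in 22 of 35 (62.9%), against 37.4% of the 32851 mouse promoters of the same length. By role, it was found in 4 of 6 windows of the mevalonate arm, 8 of 10 of the later sterol enzymes, 5 of 10 of the SREBP system, 3 of 4 of fatty acid synthesis and 2 of 5 of the desaturases and elongases. The Sp1-type sequence GGGCGG was found in 26 windows (74.3%), against 35.7% of all promoters. The sterol element CACCCCAC occurred in 1 of the 35 windows, that of Acat2, against 2.87% of all promoters. Its relaxed form TCACNCCAC occurred in none, against 1.24% of all. All motifs were searched on both strands, CACCCCAC and TCACNCCAC can overlap, and a match is a description of the letters, not a binding site. The 32851 promoters were taken whether or not their gene passed the filter on low counts, so the shares are not of like genes. Letters were set to upper case before the search in the windows of the set only, and the effect on the shares was not tested.

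Relative to the 2 WT lines, the sterol pathway was low in the mutant lines as a group, and in single genes the difference passed the test in only 2 of the 33 genes. Nsdhl, which removes a methyl group from the sterol nucleus, and Scap, the SREBP escort, fell, and no gene of the set passed as higher. These 2 of 33 (6.06%) stand beside 4.13% of all tested genes that were lower at an adjusted p under 0.05 and 3.30% that were higher (edgeR quasi-likelihood test with Benjamini-Hochberg adjustment over all 13768 genes, used for every test below). The share of calls in the set was thus near the background. At an unadjusted p under 0.05, 9 of the 33 (27.3%) were lower and 3 higher, against 14.6% and 15.9% of all genes. In 18 of the 33 (54.5%) every mutant line lay below every WT line, against 25.7% of all genes, and in 4 (12.1%) every mutant line lay above, against 26.9%. The fitted log2 fold change was below 0 in 26 of the 33 genes, with a median of -0.47, while the median over all tested genes was 0.08, with 45.6% below 0 and 54.4% above. Since the genes are co-regulated and share the same 7 libraries, these counts describe the set and are not a test of it.

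**Figure D1:**
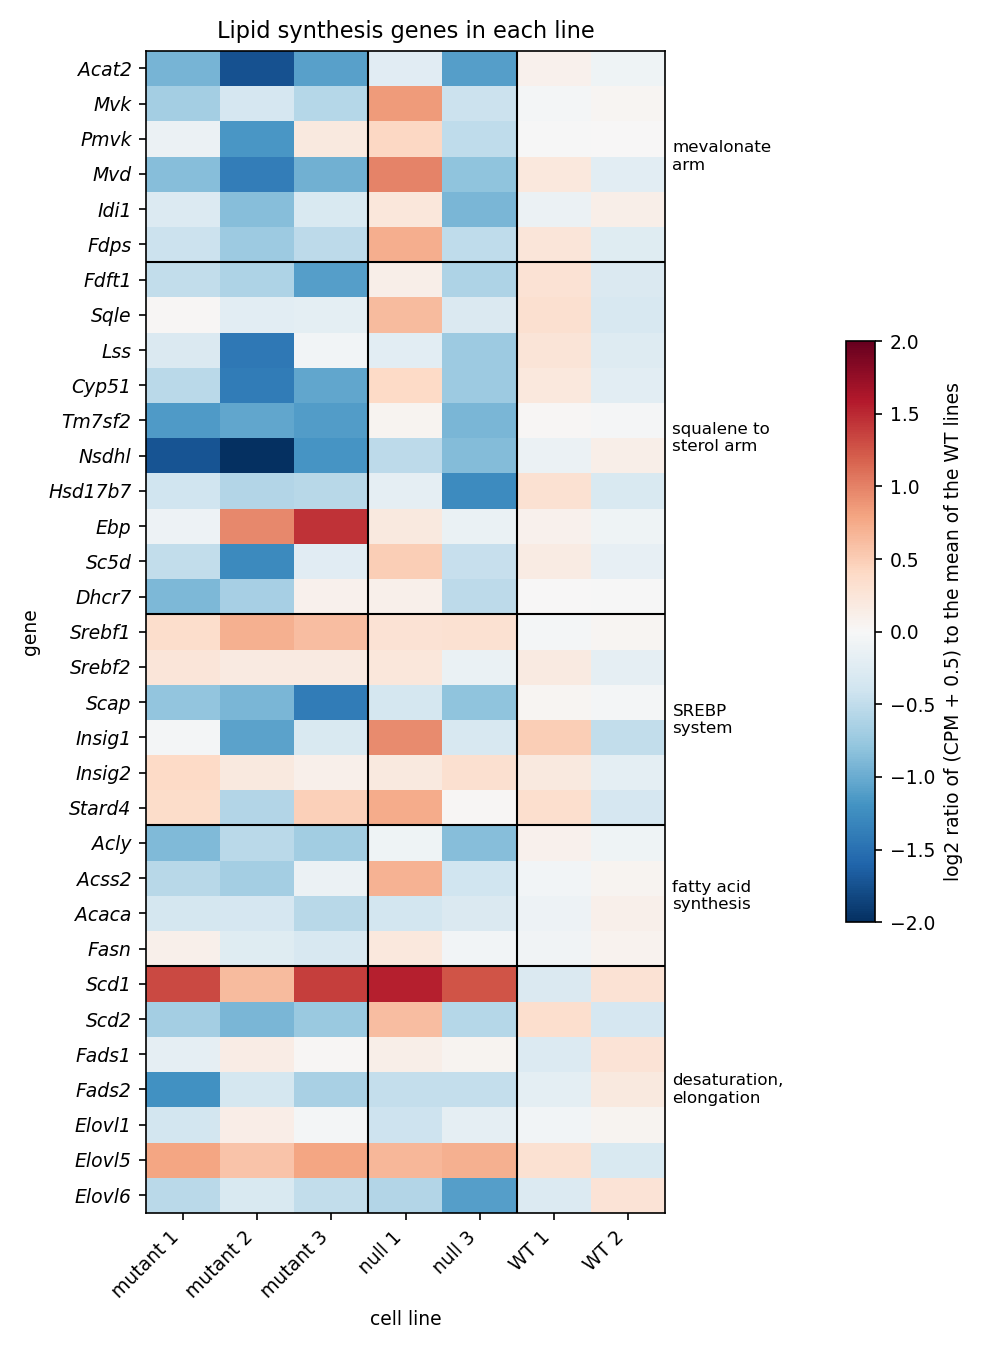
Heat map of the 33 genes (rows, grouped by role) in the 7 lines (columns, mutant, null, then WT), coloured by the log2 ratio of each line's CPM + 0.5 to the mean of the 2 WT lines. The sterol rows are mostly blue in mutant 1, 2 and 3 and in null 3 and mostly red in null 1, while Scd1, Elovl5 and Srebf1 are red in all 5 mutant and null lines.

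In the mevalonate arm, the fitted fold change of mutant against WT lines was below 0 in 6 of 6 genes, with a median of -0.55 on the log2 scale. In 5 of 6 the lines did not overlap. Of all tested genes, 45.6% were below 0, and 25.7% had every mutant line below every WT line. Acat2, the thiolase that joins 2 acetyl-CoA, had 33.7, 18.8 and 30.0 CPM in mutant 1, 2 and 3, against 68.2 and 61.0 CPM in WT 1 and 2. All mutant lines were thus below both WT lines, by 1.23 on the log2 scale (SE 0.338), at an adjusted p of 0.0703 that missed the threshold. Mvd, which decarboxylates mevalonate pyrophosphate, had 35.6, 24.5 and 32.9 CPM in mutant lines, against 75.0 and 55.9 CPM in WT lines, without overlap (log2 fold change -1.08, SE 0.485, adjusted p = 0.187). Mvk, the mevalonate kinase, had 25.7, 32.6 and 27.6 CPM in mutant lines, against 40.1 and 42.7 CPM in WT lines. Fdps, which makes farnesyl pyrophosphate, had 135.8, 109.8 and 127.6 CPM in mutant lines, against 215.5 and 154.9 CPM in WT lines. For Idi1, the isomerase of the isoprenoid unit, the values were 18.7, 12.3 and 18.3 CPM in mutant lines, against 20.9 and 24.6 CPM in WT lines. None of these overlapped, and neither Mvk, Fdps nor Idi1 reached an unadjusted p under 0.05. Pmvk, the kinase after Mvk, was the exception to the separation, with 26.6, 12.6 and 33.1 CPM in mutant lines around the 28.7 and 29.1 CPM of the WT lines.

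Among the 10 later sterol enzymes, 9 had a fold change below 0 in mutant against WT lines, with a median of -0.58, beside 45.6% of all genes. In 6 the mutant lines lay below the WT lines without overlap, beside 25.7% of all genes. The 2 WT lines also differed here. WT 1 was above WT 2 in 9 of the 10 genes, with a median log2 difference of 0.37, beside 47.1% of all genes. Nsdhl had 31.4, 25.0 and 46.3 CPM in mutant 1, 2 and 3, against 96.9 and 114.6 CPM in WT 1 and 2, and the highest mutant line stood well under the lowest WT line. It fell by 1.63 on the log2 scale (SE 0.278, adjusted p = 0.0299, n = 3 mutant and 2 WT lines, edgeR). Among fits that leave out 1 library, the call was lost when WT 1, WT 2, mutant 2 or mutant 3 was left out, where adjusted p reached up to 0.213, and the direction held each time. Tm7sf2, a sterol reductase, had 5.31, 5.72 and 5.41 CPM in mutant lines, against 12.6 and 12.0 CPM in WT lines, a tight separation at a low level (log2 fold change -1.16, SE 0.366, adjusted p = 0.0935). Cyp51, the lanosterol demethylase, had 261.3, 144.0 and 185.3 CPM in mutant lines, against 439.8 and 327.8 CPM in WT lines (log2 fold change -0.96, SE 0.385, adjusted p = 0.151). Fdft1, which makes squalene, had 140.0, 128.8 and 91.8 CPM in mutant lines, against 242.7 and 161.4 CPM in WT lines (log2 fold change -0.75, SE 0.303, adjusted p = 0.153). Both sets of lines were apart and both differences missed the threshold. The lines were also apart in Hsd17b7, a ketosterol reductase, with 130.1, 114.3 and 116.1 CPM in mutant lines, against 210.8 and 138.9 CPM in WT lines, and in Sc5d, a sterol desaturase, with 75.5, 43.5 and 90.4 CPM in mutant lines, against 118.7 and 95.0 CPM in WT lines.

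The remaining sterol enzymes overlapped. Sqle, the epoxidase that opens the oxygen-dependent part of the pathway, had 268.0, 228.2 and 230.4 CPM in mutant lines, against 329.6 and 212.4 CPM in WT lines. Lss, the cyclase, had 121.9, 55.0 and 143.7 CPM in mutant lines, against 178.6 and 124.7 CPM in WT lines, and Dhcr7, the last reductase of one branch, had 56.5, 66.7 and 112.4 CPM in mutant lines, against 106.6 and 104.7 CPM in WT lines. Ebp, a sterol isomerase, was the only one of the 10 with a fold change above 0: 32.7, 68.4 and 96.1 CPM in mutant lines, against 37.0 and 33.1 CPM in WT lines. Mutant 2 and mutant 3 carried that difference and mutant 1 lay below both WT lines (log2 fold change 0.91, SE 0.427, adjusted p = 0.203).

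**Figure D2:**
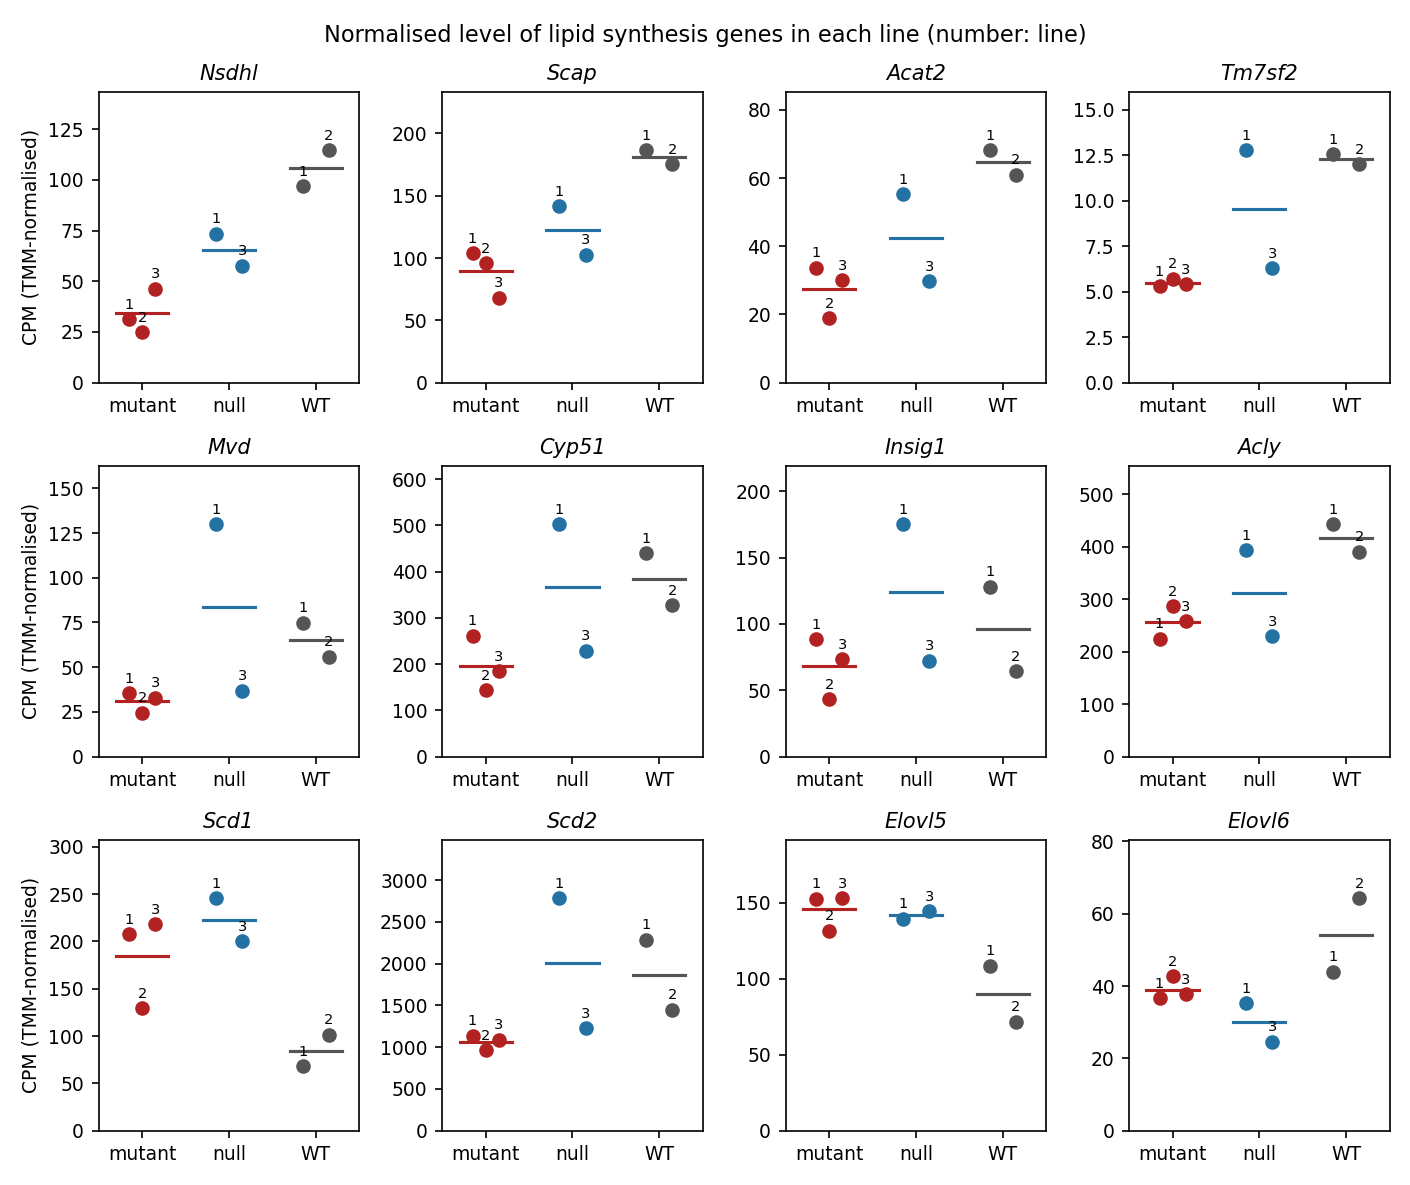
CPM (y axis, linear from 0) of genes of the set in each line, with the mutant, null and WT groups along the x axis; each point is 1 line with its number, and the bar is the group mean. In Nsdhl and Scap every mutant line is below every WT line, and in Scd1 and Elovl5 every mutant and null line is above both WT lines.

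The SREBP system did not move as one. Scap had 104.1, 95.9 and 68.1 CPM in mutant 1, 2 and 3, against 186.5 and 175.2 CPM in WT 1 and 2, with a wide gap between the groups. It fell by 1.02 on the log2 scale (SE 0.227, adjusted p = 0.0468, n = 3 mutant and 2 WT lines, edgeR), a call just under the threshold. It was lost, among others, without any of WT 1, WT 2, mutant 2 or mutant 3 and with limma-voom or upper-quartile scaling, at an adjusted p of up to 0.241. Srebf1, which encodes SREBP1, went the other way, with 147.4, 189.9 and 178.6 CPM in mutant lines, against 112.4 and 119.7 CPM in WT lines. The lines did not overlap, and the log2 fold change of 0.57 (SE 0.157) missed the threshold at an adjusted p of 0.0715. Srebf2, the main sterol-gene factor, differed little in level, with 523.1, 505.3 and 503.6 CPM in mutant lines, against 503.2 and 392.0 CPM in WT lines, so that the lowest mutant line stood only just above WT 1. The retention factor Insig1, itself a classical SREBP target, ranged widely within each group: 88.5, 43.2 and 73.6 CPM in mutant lines, against 128.0 and 64.5 CPM in WT lines. Its relative Insig2, which is not induced in the same way, had 55.0, 48.1 and 44.6 CPM in mutant lines, against 48.1 and 36.2 CPM in WT lines. Stard4, a sterol carrier of the cytosol, had 72.7, 37.4 and 78.7 CPM in mutant lines, against 71.5 and 44.5 CPM in WT lines, and these lines overlapped too.

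In fatty acid synthesis, all 4 genes had a fold change below 0 in mutant against WT lines (median -0.44), 3 without overlap, and none passed the test. Of all genes, 45.6% were below 0, and 25.7% were lower without overlap. Acly, which makes cytosolic acetyl-CoA from citrate for both pathways, had 224.8, 286.6 and 257.5 CPM in mutant lines, against 442.8 and 390.4 CPM in WT lines (log2 fold change -0.70, SE 0.250, adjusted p = 0.119). Acaca, the carboxylase that commits acetyl-CoA to fatty acids, had 38.1, 38.4 and 32.9 CPM in mutant lines, against 45.4 and 52.2 CPM in WT lines. Acss2, which makes acetyl-CoA from acetate, had 8.05, 7.31 and 11.0 CPM in mutant lines, against 11.6 and 12.5 CPM in WT lines. All 3 genes were lower in every mutant line than in either WT line. Fasn, the synthase that builds palmitate, had 324.3, 257.2 and 243.1 CPM in mutant lines, against 289.4 and 316.6 CPM in WT lines, and mutant 1 was the highest line of the 5.

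The desaturases and elongases split. Scd1, which puts the double bond into stearate and palmitate, had 207.4, 129.1 and 218.0 CPM in mutant 1, 2 and 3, against 67.9 and 101.5 CPM in WT 1 and 2. Every mutant line was above both WT lines (log2 fold change 1.13, SE 0.297), at an adjusted p of 0.0646 that missed the threshold. Its paralog Scd2, which catalyses the same step, went the other way without overlap, with 1135, 962.7 and 1091 CPM in mutant lines, against 2286 and 1449 CPM in WT lines (log2 fold change -0.81, SE 0.369, adjusted p = 0.190). Scd1 made up 15.4%, 11.8% and 16.7% of the Scd1 and Scd2 counts together in mutant lines, against 2.88% and 6.54% in WT lines. Exact 95% binomial intervals reached at most 0.36 percentage points from these shares and cover counting error only, and reads that match both paralogs may have been divided between them in the counting. Elovl5, an elongase of polyunsaturated fatty acids, had 152.6, 131.7 and 153.0 CPM in mutant lines, against 108.6 and 71.6 CPM in WT lines (log2 fold change 0.69, SE 0.205, adjusted p = 0.0829). Fads2, the delta-6 desaturase that acts before Elovl5, had 68.1, 124.9 and 100.7 CPM in mutant lines, against 138.4 and 182.6 CPM in WT lines (log2 fold change -0.71, SE 0.264, adjusted p = 0.129). Elovl6, which extends palmitate, had 36.6, 42.8 and 37.7 CPM in mutant lines, just under the 43.9 and 64.3 CPM of WT lines. Fads1, the delta-5 desaturase, overlapped between the groups, with 193.7, 244.9 and 223.3 CPM in mutant lines, against 180.9 and 267.1 CPM in WT lines. So did Elovl1, an elongase of very long chains, with 94.2, 134.0 and 119.2 CPM in mutant lines, against 117.9 and 126.3 CPM in WT lines.

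Per length of all annotated exons joined, Scd2 was the most abundant gene of the set in every group. It stood at 194.5 CPM per kilobase of exon in mutant lines, 367.3 in null lines and 341.8 in WT lines. The next in WT lines were Cyp51 at 86.9 and Acly at 78.9 CPM per kilobase, and Acss2 was lowest at 1.18. The gap between Scd2 and every other gene of the set in WT lines was wider than the spread of Scd2 between WT 1 and WT 2.

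In null against WT lines, no gene of the set passed the adjusted threshold, against 0.0654% of all genes lower and 0.0726% higher. This comparison called 19 of all genes, against 1022 in mutant against WT lines. The lack of calls here is thus no sign that the set differs between the 2 comparisons. At an unadjusted p under 0.05 there were 2 higher and 1 lower gene, against 11.2% and 9.01% of all genes, and DESeq2 called 1, Scd1. The null lines did not overlap the WT lines in 7 genes that were lower (21.2%) and 3 that were higher (9.09%), against 27.1% and 29.1% of all genes. The median log2 fold change was 0.04, with 18 of 33 above 0, beside 0.06 over all genes, of which 53.6% were above 0 and 46.4% below. Scd1 was the gene nearest to the threshold, with 245.7 and 199.9 CPM in null 1 and 3, against 67.9 and 101.5 CPM in WT 1 and 2 (log2 fold change 1.40, SE 0.319, adjusted p = 0.115). Elovl5 had 139.4 and 144.4 CPM in null lines, against 108.6 and 71.6 CPM in WT lines (log2 fold change 0.65, SE 0.221, adjusted p = 0.188). Elovl6 had 35.3 and 24.6 CPM in null lines, against 43.9 and 64.3 CPM in WT lines (log2 fold change -0.85, SE 0.270, adjusted p = 0.177). For these 3 genes both null lines lay on one side of both WT lines.

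The 2 null lines differed from each other across the sterol pathway. Relative to the WT mean, the median log2 ratio of the mevalonate genes was 0.58 in null 1 and -0.65 in null 3, and that of the later sterol enzymes 0.11 and -0.67. The same ratios were -0.55, -1.01 and -0.55 for the mevalonate genes and -0.49, -0.85 and -0.39 for the later enzymes in mutant 1, 2 and 3, so null 3 lay among the mutant lines and null 1 above the WT mean. In WT 1 and 2 they were 0.035 and -0.035 for the mevalonate genes and 0.19 and -0.19 for the later enzymes. All 16 sterol enzymes were higher in null 1 than in null 3. Over the whole set it was 28 of 33 (84.8%, median log2 difference 0.72), against 49.8% of all genes, and 9 of the 33 (27.3%) differed by more than 2-fold, against 5.99% of all genes. Mvd had 130.0 CPM in null 1 and 36.9 CPM in null 3, Mvk 75.4 and 30.6 CPM, and Cyp51 502.8 and 229.2 CPM. Fdps had 304.2 and 128.9 CPM in null 1 and 3, Insig1 175.2 and 72.5 CPM, and Scd2 2786 and 1228 CPM. In each of these genes null 1 was the highest of all 7 lines, while null 3 stood below both WT lines in all but Insig1. Null 1 and null 3 also stood apart in the fibroblast marker sum given above, at 8.03 and 419.6 CPM, and in the sum of 6 muscle markers, at 1.73 and 115.8 CPM. Mutant 2, the line with the lowest sterol medians, had sums of 9.73 and 1.04 CPM. The muscle sum was low in the other mutant lines too, at 4.23 CPM in mutant 1 and 0.918 CPM in mutant 3. It was 12.6 and 23.1 CPM in WT 1 and 2. The part of these differences was not tested. With null 1 left out, the median log2 fold change of the set in null against WT lines moved to -0.49, and that of Mvk turned to -0.44.

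Smaller gaps between the null lines were seen elsewhere in the pathway. The thiolase Acat2 had 55.2 and 29.7 CPM in null 1 and 3, against 68.2 and 61.0 CPM in WT 1 and 2, and the reductase Tm7sf2 had 12.8 and 6.30 CPM in null lines, against 12.6 and 12.0 CPM in WT lines. Sqle had 412.3 and 216.4 CPM in null lines, against 329.6 and 212.4 CPM in WT lines, and Hsd17b7 had 150.3 and 71.5 CPM, against 210.8 and 138.9 CPM. Null 3 was the lowest or next to lowest of the 4 lines in each of these 4 genes, and null 1 was the highest in Tm7sf2 and Sqle. Acly had 393.0 and 229.3 CPM in null lines, against 442.8 and 390.4 CPM in WT lines, so null 1 lay within the WT range and null 3 under it. Genes of the fatty acid branch that kept together in the null lines were Srebf1 (141.6 and 143.7 CPM, against 112.4 and 119.7 CPM in WT lines), Acaca (37.7 and 39.8 CPM, against 45.4 and 52.2 CPM) and Fads2 (114.3 and 114.2 CPM, against 138.4 and 182.6 CPM). Both null lines were above both WT lines in Srebf1 and below both in Acaca and Fads2, and none of the 3 reached an unadjusted p under 0.05. Scd1 made up 8.10% and 14.0% of the Scd1 and Scd2 counts in null 1 and 3, against 2.88% and 6.54% in WT 1 and 2.

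**Figure D3:**
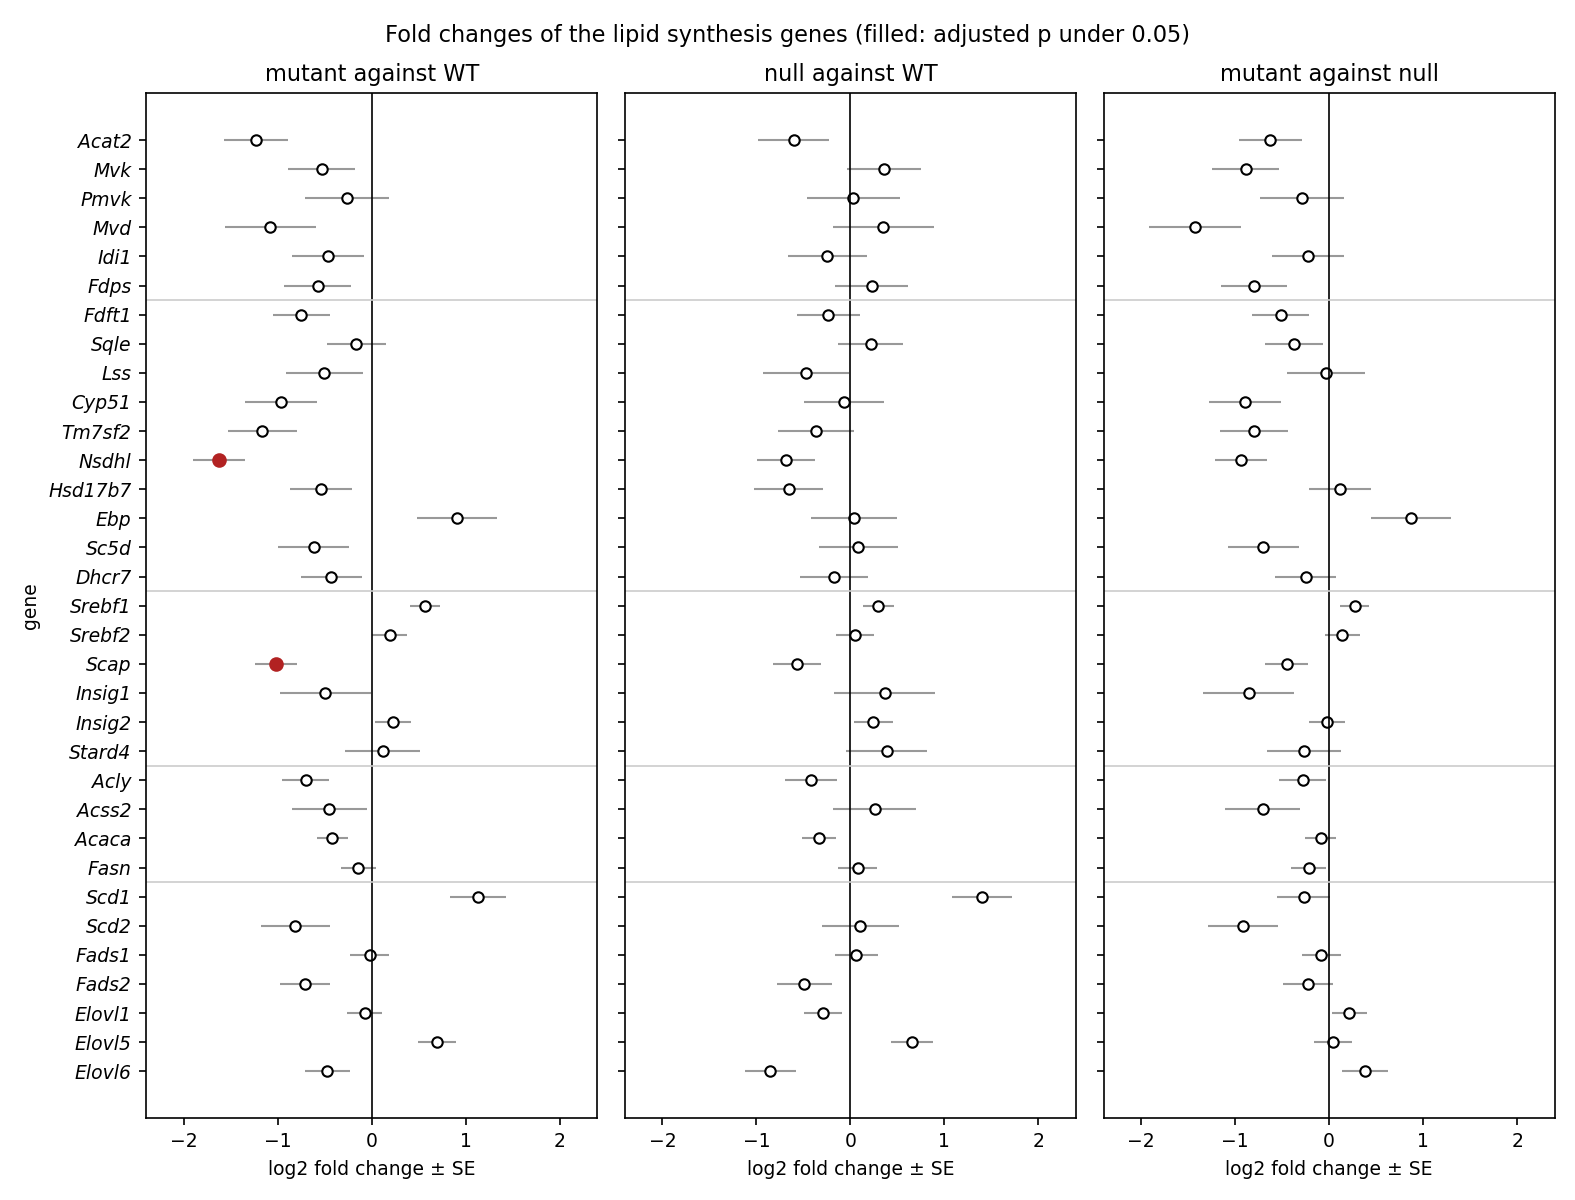
Fitted log2 fold changes (x axis) of the 33 genes, ordered by role, for mutant against WT, null against WT and mutant against null lines; points are edgeR estimates and bars 1 standard error. The mevalonate and later sterol genes other than Ebp lie left of 0 in mutant against WT, while Scd1 and Elovl5 lie right of 0 in both comparisons with WT.

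In the null lines Nsdhl stood between the mutant and WT lines, and Scap did so in its group mean only. Nsdhl had 73.4 and 57.7 CPM in null 1 and 3, below the 96.9 and 114.6 CPM of WT 1 and 2 and above every mutant line (null against WT log2 fold change -0.69, SE 0.309, adjusted p = 0.269). Scap had 141.6 and 102.8 CPM in null lines, below the 186.5 and 175.2 CPM of WT lines, and null 3 lay just below mutant 1 (null against WT log2 fold change -0.57, SE 0.253, adjusted p = 0.269). Considering all 5 mutant and null lines against the same 2 WT lines, every line was lower than both WT lines in 6 genes (Acat2, Nsdhl, Scap, Acaca, Fads2 and Elovl6) and higher in 3 (Srebf1, Scd1 and Elovl5). These are 18.2% and 9.09% of the set, against 16.4% and 17.4% of all genes. The comparisons of mutant and of null lines with WT share both WT libraries, so a like value in both is not a repeat observation.

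Between mutant and null lines, which share the 4NQO label, no gene of the set passed the adjusted threshold. That was true of all 13768 genes, with 0 called by edgeR, 1924 at an unadjusted p under 0.05 and 604 called by DESeq2, none of them in the set. At an unadjusted p under 0.05, 0 genes of the set were higher and 4 lower in mutant lines (Mvk, Mvd, Nsdhl and Scd2), against 6.35% and 7.63% of all genes. The median log2 fold change was -0.27, with 26 of 33 below 0, beside 0.02 over all genes, of which 48.7% were below 0 and 51.3% above. It was -0.71 in the mevalonate arm and -0.45 in the later sterol enzymes. Without null 3 the median of the set was -0.61 and without null 1 it was -0.047, so its size followed which null line was used. The lines did not overlap in 4 genes lower in mutant lines (Mvd, Tm7sf2, Nsdhl and Scd2) and 2 higher (Srebf1 and Elovl6), against 15.1% and 16.0% of all genes. Mvd had 35.6, 24.5 and 32.9 CPM in mutant lines, against 130.0 and 36.9 CPM in null lines, with null 3 close to mutant 1 (log2 fold change -1.43, SE 0.485, adjusted p = 0.306). Nsdhl had 31.4, 25.0 and 46.3 CPM in mutant lines, against 73.4 and 57.7 CPM in null lines, and here both null lines stood above all mutant lines (log2 fold change -0.94, SE 0.277, adjusted p = 0.287). Scd2 had 1135, 962.7 and 1091 CPM in mutant lines, against 2786 and 1228 CPM in null lines (log2 fold change -0.92, SE 0.369, adjusted p = 0.344).

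Other genes of lipid metabolism were read from 4 further lists, and 5 of their 63 tested genes passed in mutant against WT lines. The 4 that fell (6.35%) and the 1 that rose (1.59%) stand beside 4.13% and 3.30% of all genes, so these lists were near the background. Among 20 partners of the synthesis enzymes, 2 fell and 0 rose (10% and 0%, beside 4.13% and 3.30% of all genes). Acsl5, which activates long-chain fatty acids with CoA, had 65.8, 74.6 and 57.5 CPM in mutant lines, against 183.9 and 197.1 CPM in WT lines, and fell by 1.53 on the log2 scale (SE 0.223, adjusted p = 0.0232). Mid1ip1, a protein that promotes the polymerisation of acetyl-CoA carboxylase, had 136.3, 241.9 and 182.2 CPM in mutant lines, against 445.2 and 392.6 CPM in WT lines (log2 fold change -1.17, SE 0.247, adjusted p = 0.0432). Both genes were far below WT in every mutant line, and the null lines lay between, at 141.1 and 88.9 CPM for Acsl5 and 329.1 and 291.8 CPM for Mid1ip1.

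Among 16 genes of fatty acid oxidation, 1 fell (6.25%, beside 4.13% of all genes). Ppard, a nuclear receptor for fatty acids that is active in squamous epithelium, had 147.5, 142.5 and 133.9 CPM in mutant lines, against 301.7 and 300.3 CPM in WT lines (log2 fold change -1.09, SE 0.196, adjusted p = 0.0326). The oxidation enzyme Acadm, a medium-chain dehydrogenase, had 27.7, 38.3 and 26.2 CPM in mutant lines, against 16.6 and 13.7 CPM in WT lines, apart but not past the threshold.

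Among 13 genes of lipid storage, 1 fell and 1 rose (7.69% each, beside 4.13% and 3.30% of all genes). Dgat2, which makes triglyceride, had 12.2, 10.3 and 10.3 CPM in mutant lines, against 23.3 and 24.0 CPM in WT lines (log2 fold change -1.11, SE 0.222, adjusted p = 0.0383). Mgll, the monoglyceride lipase that finishes triglyceride breakdown, had 11.9, 51.4 and 9.13 CPM in mutant lines, against 0.068 and 0.244 CPM in WT lines (log2 fold change 7.45, SE 1.21, adjusted p = 0.0274). The WT values are 2 and 3 counts, and the null values of 0.304 and 0.266 CPM are 10 and 7 counts, so the lines separate clearly and the size of the fold is poorly set. The storage lipase Lipe had 11.2, 4.96 and 8.95 CPM in mutant lines and 20.4 and 19.5 CPM in null lines, against 13.6 and 15.1 CPM in WT lines.

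In the list of 14 sterol sensing and transport genes, 0 passed in either direction in any of the 3 comparisons. Soat1, which esterifies cholesterol for storage, was nearest, with 55.6, 56.1 and 93.2 CPM in mutant lines and 29.4 and 40.5 CPM in null lines, against 28.7 and 30.9 CPM in WT lines (mutant against WT log2 fold change 1.20, adjusted p = 0.058). Abca1, the exporter through which p53 has been linked to SREBP2, had 7.61, 8.19 and 7.78 CPM in mutant lines and 0.761 and 4.71 CPM in null lines, against 5.75 and 10.1 CPM in WT lines. Both null lines were below both WT lines and the mutant lines were not. Null lines lay below WT lines without overlap in 4 of the 14 genes of this list (28.6%), against 27.1% of all genes. A part of Abca1 in the sterol gene levels was not tested. The 5 calls of these lists were all lost when WT 1, WT 2, mutant 2 or mutant 3 was left out, with adjusted p up to 0.243, and that of Mgll also with limma-voom (adjusted p = 0.222). No gene of the 4 lists passed in null against WT or in mutant against null lines.

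**Figure D4:**
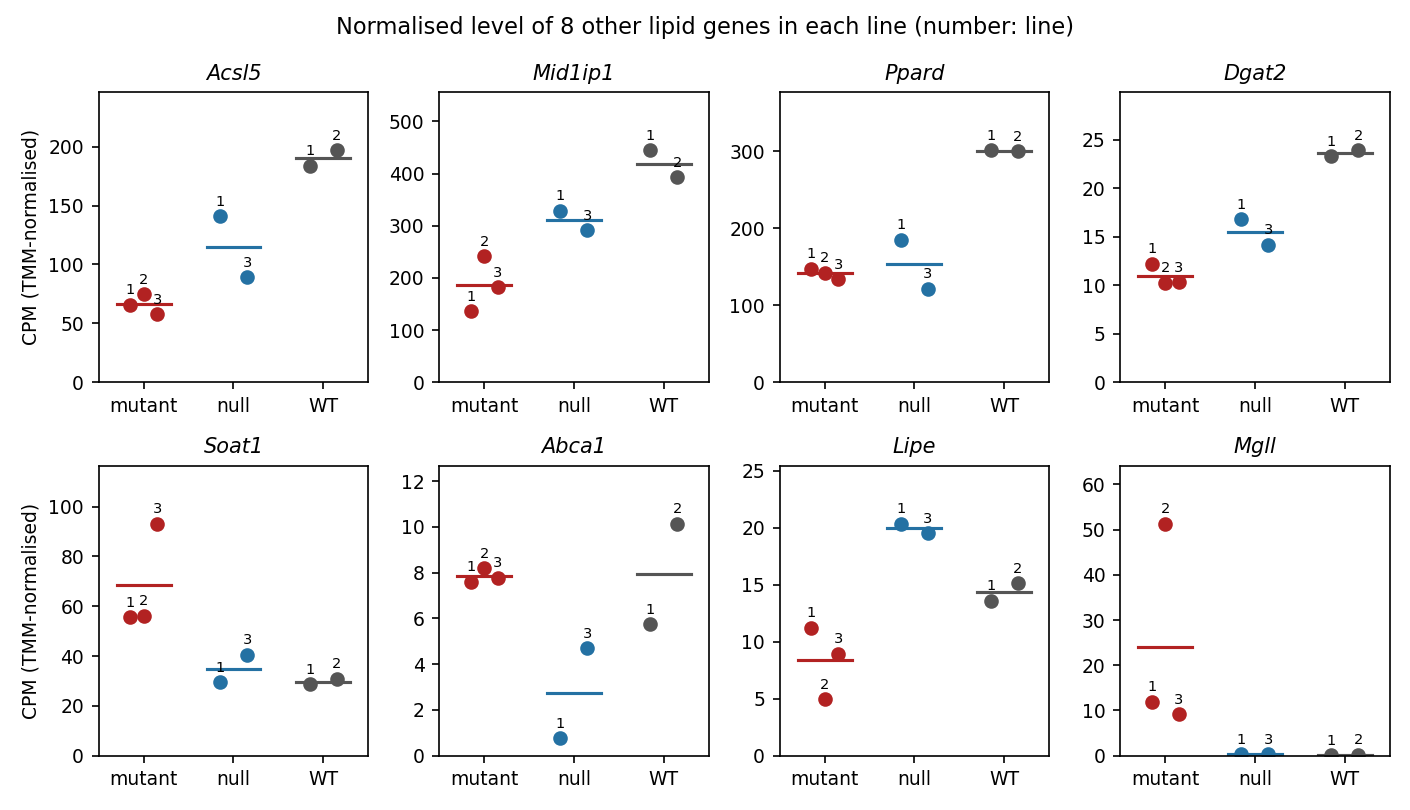
CPM (y axis, linear from 0) of 8 other lipid genes in each line, with the mutant, null and WT groups along the x axis; each point is 1 line with its number, and the bar is the group mean. Acsl5, Mid1ip1, Ppard and Dgat2 are lower in all mutant lines than in both WT lines, Mgll is near 0 outside the mutant lines, and Abca1 is lowest in null 1.

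The calls in mutant against WT lines depended on which libraries were kept. With WT 1, WT 2, mutant 2 or mutant 3 left out, 0 genes of the set passed, when 0, 0, 37 and 6 of all genes did. With mutant 1, null 1 or null 3 left out, 4 genes of the set passed, when 1420, 1272 and 1352 of all genes did, so the set's count moved with that of all genes. DESeq2 called 9 of the 33 (3 higher and 6 lower), against 3188 of 13768 genes.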

How the data were processed

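Gene counts of 7 stranded poly(A) RNA libraries (TruSeq Stranded mRNA, per the labels' protocols) were analysed as deposited. Reads were aligned by the authors with STAR 2.5.1b to mm9, per the submitters' processing notes; how they were counted, with which strand setting and annotation, is not stated in the labels. The deposited table held whole-number counts of 24047 names, among them 92 spike-in names with 0 counts and 27 names in the form of dates. From these counts, edgeR 4.0.16 (R 4.3.3) gave TMM-scaled CPM and the quasi-likelihood test, with all 7 libraries in one fit by group, the filter of filterByExpr, Benjamini-Hochberg adjustment over 13768 genes and a threshold of 0.05. The tested genes held at least 99.953% of the counts of each library, and the common biological coefficient of variation was 0.485. Standard errors were computed as the absolute log2 fold change over the square root of F, and log2 ratios per line used CPM + 0.5. No label ties the lines to separate animals. The p-values therefore cover only how these lines vary, which may be technical. The replicate lines of a group differed well beyond counting noise (chi-square per degree of freedom of 56.44 or more).

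The members and the other gene lists were chosen with earlier results of these data known. Genes were named by a rule: the 2 with the smallest p in each role group, all with an unadjusted p under 0.05, and the calls and smallest p in the other lists; further members were added to complete each role. By GENCODE vM21, 7 of the 33 genes share exon bases with another coding gene, so their counts are uncertain: Fdft1 with Ctsb (774 bases, opposite strand), Fdps with the predicted gene Gm43738 (1124 bases, same strand), and Cyp51, Srebf1, Elovl1, Acss2 and Tm7sf2 with 166 bases or fewer. Levels per kilobase used the joined length of all exons of a gene in GENCODE vM21. That length can exceed the length of the transcript present, so the order of genes by this level is approximate. Promoters are those of RefSeq, GRCm38.p6. Alternatives were RLE and upper-quartile factors, no filter, at least 5 CPM in 2 libraries, only the 2 groups compared, a replicate block, DESeq2 1.42.0, limma-voom (limma 3.58.1), each library left out, and the newer form of the edgeR fit, which was added after seeing the data.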

Additional observations from a re-analysis of the deposited data

Results flagged for a closer look

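In 2 lipid genes every mutant line was below both WT lines and every null line above both. These are 2 of 96 lipid genes tested (2.08%), beside 0.748% of all 13768 genes; the opposite order was seen in 0 lipid genes and 0.734% of all. Elovl7, an elongase of very long fatty acids, had 32.0, 31.0 and 18.0 CPM in mutant lines and 48.1 and 50.7 CPM in null lines, against 35.7 and 41.4 CPM in WT lines. The difference of mutant against null lines was -0.87 on the log2 scale and missed the threshold (edgeR adjusted p = 0.290). Lipe, the hormone-sensitive lipase, showed the same order with the values given in the report. Its mutant against null difference was -1.25 on the log2 scale (edgeR adjusted p = 0.287).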

How the results depend on the processing

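Mutant against WT: 2 genes of the set were called. The count was 1 with upper-quartile factors and with limma-voom, 0 with a replicate block, 4 with only the 2 groups compared, 9 with DESeq2, and 0 to 4 with each library left out. Over all genes, 1022 were called: 3188 with DESeq2, 0 with the block and 0 to 1420 with each library left out. Null against WT: 0 genes of the set (DESeq2 1, every other alternative 0) and 19 of all genes, with 77 without a filter, 0 with the block, 1529 with DESeq2, 0 with limma-voom, 55 with the newer edgeR form and 0 to 55 with each library left out. Mutant against null: 0 genes of the set under every alternative run, and 0 of all genes, with 1 under RLE factors, upper-quartile factors, the 5 CPM filter and the newer edgeR form, 2 without a filter, 604 with DESeq2 and 0 to 22 with each library left out. The median log2 fold change of the set ranged from -0.57 to -0.36 in mutant against WT, from -0.49 to 0.20 in null against WT and from -0.61 to -0.047 in mutant against null with each library left out; the ends of the last 2 came from leaving out null 1 or null 3. Mvk in null against WT turned to -0.44 without null 1 and was 0.87 without null 3. Nsdhl kept its direction and was called in 11 of 16 alternatives (adjusted p between 7.04e-06 and 0.213), and Scap in 9 of 16 (0.00116 to 0.241); Acsl5, Mid1ip1, Ppard and Dgat2 were called in 11 and Mgll in 10. Of the values of single named genes under alternatives, 847 kept direction and side of the threshold, 38 lost it, 25 gained it and 1 turned. Most of these values belong to genes not called in the main fit, for which keeping the side of the threshold says little. All 38 losses were among the called genes. The cause of these moves was not tested; lines left out mean fewer samples. The replicate numbers are shared across groups, but same-numbered lines did not deviate together (correlations between -0.361 and 0.149), so they were not taken as pairs; with the replicate block, Nsdhl (log2 fold change -1.78, adjusted p = 0.125), Scap (-0.87, 0.121) and the 5 calls of the other lists also missed the threshold. A line left alone in its group was assumed to vary like the others.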
